A study of Mus musculus with 4 samples.

Results

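Immediate early genes and genes of the stress response were followed through the cells of mouse intestinal adenomas. The set held 10 genes, Fos, Fosb, Jun, Junb, Jund, Egr1, Atf3, Ier2, Dusp1 and Hspa1a, which were looked up by symbol among the 27514 genes listed for both chemistries used. All 10 were found, and all 10 passed the filter on low counts in every comparison as first fitted. Their levels were taken in 6 cell classes, adenoma, crypt, enterocyte, fibroblast, endothelial and immune cells, each set by marker genes among barcodes with at least 2000 unique molecular identifiers (UMIs, 1 per captured RNA molecule) and at most 20% mitochondrial UMIs.

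The adenomas came from C57BL/6 mice of 11 weeks that all carried the ApcMin allele, a truncating mutation of the Wnt pathway brake Apc. The ApcMin group kept normal Lef1 (ApcMin/+;Lef1 +/+), and the VApcMinL group had floxed Lef1 with a Villin-Cre transgene (ApcMin/+;Lef1 fl/fl;Villin-Cre), whose promoter is active in intestinal epithelium and not in stroma or blood cells. Each library held pooled tumors, 3 to 10 of them, that were digested with dispase, collagenases and DNase at 32 °C for 30 min and, after that, at 37 °C for 15 min with trypsin-EDTA, and were loaded without sorting. There were 2 libraries per group, 1 made with the 10x Genomics 3′ chemistry v2 and 1 with v3 (kit 2 and kit 3), so that each kit held 1 library of each label. All cells went through the same digestion and no undigested tissue was measured, so what the digestion added to any level cannot be told apart from the level in the tumor.

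Values are given throughout in the order ApcMin then VApcMinL of replicate 1, which is kit 2, and ApcMin then VApcMinL of replicate 2, which is kit 3. The files held 44660305 to 128247396 UMIs per library. The mitochondrial limit removed 20.4, 21.3, 61.6 and 26.5% of the barcodes that passed the UMI floor, so the third library lost most of its barcodes. The classes held 508, 525, 351 and 2075 adenoma, 44, 16, 64 and 118 crypt, 342, 709, 928 and 656 enterocyte, 114, 58, 41 and 19 fibroblast, 94, 54, 8 and 7 endothelial and 411, 332, 148 and 231 immune cells. The kit 3 libraries thus held few fibroblasts and under 10 endothelial cells each, and the endothelial class entered the tests with its kit 2 libraries only. Libraries shared at most 9 barcodes. Levels are given as CPM, the UMIs of a gene per 1000000 UMIs of the same cells. Lef1 itself stood at 8.53, 29.2, 34.0 and 22.1 CPM in adenoma cells, so in the kit 2 pair the library labelled VApcMinL held more Lef1 than the library labelled ApcMin, against its label. Xist stood at 862 and 296 CPM in the libraries labelled VApcMinL and at 0.19 or below in the other pair, although every sample is labelled male. The labels do not say that the libraries came from separate animals, so p-values measure the spread between these libraries.

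The classes were gated on the same marker lists that are summed here, so these sums describe the gates and are no separate check of the classes. The summed epithelial markers stood at 8748 to 10632 CPM in adenoma cells and at 358 to 739.5 in fibroblasts, 205 to 684 in endothelial cells and 526 to 1020.0 in immune cells. The summed fibroblast markers, 11686 to 16989 in fibroblasts, were at 6.02 to 20.1 in adenoma cells, and the summed immune markers, 4845 to 6323 in immune cells, were at 11.2 to 32.3.

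Immediate early genes are transcribed within minutes of a stimulus without the need for new protein. Their promoters are held ready for factors that kinases switch on, such as serum response factor and CREB, and many of their RNAs are short-lived. The FOS and JUN proteins pair into the AP-1 transcription factor, EGR1 and ATF3 are further inducible transcription factors, DUSP1 feeds back on the MAP kinases that start the response, and HSPA1A is the inducible chaperone of the heat shock response. In tissue taken apart with warm enzymes these genes are known to be induced while the cells are still alive, and they also respond to growth signals in intact tissue.

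Jund, Junb and Ier2 share chromosome 8 and Dusp1 and Hspa1a share chromosome 17, and the others lie on chromosomes of their own. In the GENCODE annotation of GRCm38, the build the deposited reads were aligned to, Fos is at chr12:85473890-85477273, Fosb at chr7:19302696-19310051, Jun at chr4:95049034-95052222, Junb at chr8:84974484-84978718, Jund at chr8:70698949-70700616, Atf3 at chr1:191170296-191218039, Ier2 at chr8:84661331-84662852, Dusp1 at chr17:26505590-26562128 and Hspa1a at chr17:34969190-34972156. Jun, Junb, Jund, Ier2 and Hspa1a have a single exon in their principal transcript, and Fos, Fosb, Atf3 and Dusp1 have 4. Counts were assigned at the gene's 3′ end. Hspa1a has a near-identical neighbour, Hspa1b, and reads that fit both are not counted to either by this kind of counting, so the Hspa1a level is uncertain.

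RefSeq promoter sequences (GRCm38.p6, 250 bases before to 50 after the start site, strand of the gene) were at hand for 8 of the 10 genes, all but Egr1 and Ier2. They are shown for 4 genes whose levels set the cell classes apart below. Capitals mark TGACGT or its reverse complement, the core of the cyclic AMP response element that CREB and ATF proteins bind, and GAANNTTC, a pair of inverted units of the heat shock element.
Fos (chr12:85473640-85473939, forward): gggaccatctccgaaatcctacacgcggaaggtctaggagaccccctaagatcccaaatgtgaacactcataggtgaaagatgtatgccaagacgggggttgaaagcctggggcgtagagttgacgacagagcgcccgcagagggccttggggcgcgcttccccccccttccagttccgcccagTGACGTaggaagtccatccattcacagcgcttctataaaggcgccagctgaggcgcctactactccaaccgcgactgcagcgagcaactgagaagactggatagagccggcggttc
Dusp1 (chr17:26508423-26508722, reverse): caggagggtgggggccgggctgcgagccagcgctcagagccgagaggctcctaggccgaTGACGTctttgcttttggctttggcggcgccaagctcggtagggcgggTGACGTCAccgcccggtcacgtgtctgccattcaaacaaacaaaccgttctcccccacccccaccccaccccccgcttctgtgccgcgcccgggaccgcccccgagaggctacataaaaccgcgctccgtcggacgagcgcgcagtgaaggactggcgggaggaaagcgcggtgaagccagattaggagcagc
Atf3 (chr1:191183284-191183583, reverse): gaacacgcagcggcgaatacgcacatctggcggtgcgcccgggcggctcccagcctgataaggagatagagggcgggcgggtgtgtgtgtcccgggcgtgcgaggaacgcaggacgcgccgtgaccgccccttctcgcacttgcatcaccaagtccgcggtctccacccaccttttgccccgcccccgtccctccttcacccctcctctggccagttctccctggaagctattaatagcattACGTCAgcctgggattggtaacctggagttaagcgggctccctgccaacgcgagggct
Hspa1a (chr17:34972107-34972406, reverse): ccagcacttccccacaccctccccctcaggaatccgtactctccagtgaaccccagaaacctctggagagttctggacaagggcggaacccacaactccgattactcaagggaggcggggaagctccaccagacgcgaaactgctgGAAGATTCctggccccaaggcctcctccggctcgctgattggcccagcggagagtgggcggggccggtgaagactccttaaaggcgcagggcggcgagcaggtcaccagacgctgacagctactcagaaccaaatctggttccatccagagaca
The core TGACGT, searched on both strands, was in 3 of the 8 promoters, those of Fos, Atf3 and Dusp1, and in 7.51% of all 32851 promoters of this length. It began 66 bases before the start site in Fos. The Dusp1 promoter held the full palindrome TGACGTCA, 143 bases before the start site, which 1.79% of all promoters held and which contains the core on both strands. GAANNTTC, which reads the same on both strands, was in the Hspa1a promoter, 104 bases before the start site, in that of Jun and in 7.86% of all promoters. The AP-1 site TGACTCA and the CArG box, the site of serum response factor, were in none of the 8 windows, against 5.2% and 1.63% of all promoters. Such matches of letters are a description and not binding sites. Sites outside these windows were not searched, and the Jund window, chr8:70697489-70697788, ends before the gene start given above.

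Levels below are CPM, taken over the summed cells of a class in a library. The sum of the 10 genes was 3229 to 3843 CPM in adenoma cells, 1786 to 3445 in crypt cells and 3377 to 3779 in enterocytes, and reached 2515 to 10872 in fibroblasts, 3426 to 13194 in endothelial cells, the kit 3 sums of 8 and 7 cells included, and 4873 to 9657 in immune cells. In fibroblasts and endothelial cells the high end of that range came from the kit 2 libraries and the low end from the kit 3 libraries.

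**Figure D1:**
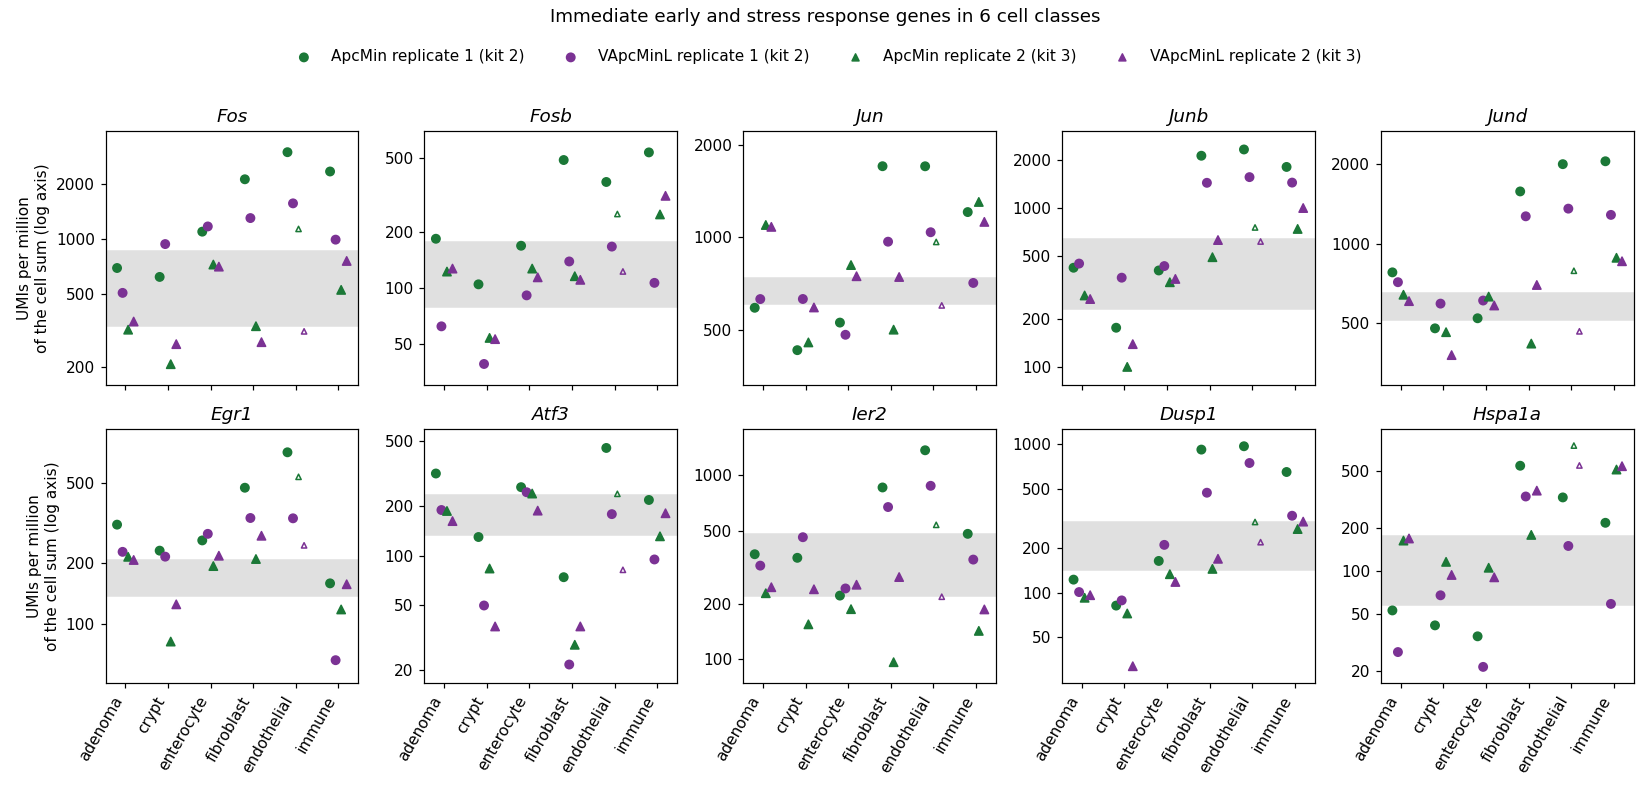
Level of each of the 10 genes (CPM in the class sum, log axis, a separate scale per gene) in 6 cell classes; each point is 1 library, colour gives the label, shape the kit, open small points are sums of under 10 cells, and the grey band spans the level in barcodes of at most 100 UMIs over the 4 libraries. Junb, Dusp1 and Hspa1a were higher in all 4 fibroblast sums than in any adenoma sum, and Atf3 was lower, at 21.6 to 73.8 against 163 to 318.

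Fos encodes an AP-1 subunit, and its RNA is among the fastest to appear and decay. In adenoma cells it stood at 695, 509, 321 and 355 CPM. In enterocytes it stood at 1096, 1170.3, 726 and 707, above all 4 adenoma values. In immune cells the values were 2332, 992, 528 and 759, and in fibroblasts 2114, 1300.0, 335 and 274, so the kit 2 fibroblasts were well above the kit 2 adenoma cells and the kit 3 fibroblasts were level with the kit 3 adenoma cells. The endothelial sums of kit 2 held 2970.0 and 1563. Fos was higher than in adenoma cells in enterocytes, by a log2 fold change of 1.77 (SE 0.30, adjusted p = 1.6e-05) in the quasi-likelihood test of edgeR, adjusted over all genes, in endothelial cells, 1.37 (SE 0.37, adjusted p = 0.0046), and in immune cells, 1.33 (SE 0.30, adjusted p = 0.00058). The endothelial call was lost in 3 of 14 alternatives, among them the fit without ApcMin replicate 1. In crypt cells, 621, 938, 208 and 267, the difference did not pass the test.

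Fosb, a second FOS family subunit, stood at 184, 62.2, 123 and 127 in adenoma cells and 105, 38.9, 53.8 and 53.0 in crypt cells. Crypt cells were below the adenoma cells of the same library in all 4 libraries, with a log2 fold change of -1.01 (SE 0.25, adjusted p = 0.0036). Immune cells held 539, 107, 249 and 314, above their own adenoma cells in all 4 libraries, at a log2 fold change of 1.38 (SE 0.23, adjusted p = 2.4e-05). Fibroblasts held 490.2, 139, 116 and 111, a difference that did not pass the test as first fitted. It passed higher in 10 of 16 alternatives and turned to -0.23 within kit 3.

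Junb passed the test in all 5 classes with all libraries, though its enterocyte call was lost in 6 of 16 alternatives and its crypt call in 3. Junb, which is known to dampen as well as to drive AP-1 targets, stood at 421, 447, 282 and 268 in adenoma cells and at 177, 365, 101 and 139.9 in crypt cells. It reached 2116, 1432, 489.9 and 627 in fibroblasts, 1800.1, 1436, 736 and 995 in immune cells and, in the kit 2 sums, 2316 and 1554 in endothelial cells. None of these stromal and immune values overlapped those of adenoma cells. The log2 fold changes over adenoma cells were 1.41 (SE 0.25, adjusted p = 5.4e-05) in fibroblasts, 1.81 (SE 0.30, adjusted p = 4.3e-05) in endothelial cells and 1.95 (SE 0.25, adjusted p = 6.1e-07) in immune cells. In crypt cells Junb was lower, with a log2 fold change of -0.98 (SE 0.25, adjusted p = 0.0044), and in enterocytes it was 0.90 (SE 0.24, adjusted p = 0.0023).

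Jun, the AP-1 subunit that JNK phosphorylates under stress, was the gene of the set with no call against adenoma cells as first fitted. In 5 of 16 alternatives it passed lower in crypt cells, and in 5 of 16 higher in immune cells. It stood at 590.0, 629.9, 1098 and 1083 in adenoma cells, with the kit 3 libraries at the high end, at 1708, 969, 501 and 743 in fibroblasts and at 1210.3, 711, 1306 and 1124 in immune cells. Its log2 fold changes lay between -0.67 in crypt cells and 0.56 in endothelial cells. Jund, the family member that is expressed steadily rather than in bursts, stood at 777, 713, 639 and 604 in adenoma cells and at 2053, 1284, 883 and 856 in immune cells, where the ranges did not overlap. Its log2 fold change was 1.01 (SE 0.25, adjusted p = 0.0013) in immune cells and 0.79 (SE 0.31, adjusted p = 0.047) in endothelial cells. In endothelial cells the call was lost in 6 of 14 alternatives.

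Egr1, a zinc finger transcription factor that serum and growth factors induce, was the 1 gene of the 10 that passed the test lower in immune cells. It stood at 311, 228, 216 and 208 in adenoma cells and at 159, 66.2, 118 and 158 in immune cells, with no overlap, at a log2 fold change of -0.77 (SE 0.23, adjusted p = 0.0068). The call was lost within kit 3, at -0.37, and with no library block. In fibroblasts it stood at 474, 336, 210.2 and 274 and did not pass the test. In crypt cells, at 231, 216, 81.9 and 125, its log2 fold change was -0.68 (SE 0.23, adjusted p = 0.029), a call that 7 of 16 alternatives lost.

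Atf3, a CREB family factor that cell stress induces and that often represses its targets, took an order of its own. It stood at 318, 190.2, 188 and 163 in adenoma cells and at 262, 244, 239.8 and 189 in enterocytes. In fibroblasts it was at 73.8, 21.6, 28.5 and 36.9, below every adenoma value, with a log2 fold change of -2.60 (SE 0.29, adjusted p = 1.0e-07). In crypt cells it was at 130.0, 49.6, 83.4 and 36.9, also below every adenoma value, with -1.57 (SE 0.25, adjusted p = 3.2e-05). Both differences kept their direction and passed the test in all 16 alternatives. In the kit 2 endothelial sums it stood at 456 and 179. Fibroblasts, high in Junb, Dusp1 and Hspa1a, held the lowest Atf3 of the 6 classes in 3 of the 4 libraries and were level with crypt cells in the fourth. After thinning each cell to 2000 UMIs 9.65, 5.17, 4.88 and 0% of fibroblasts held an Atf3 UMI, against 42.3, 26.3, 23.9 and 22.7% of adenoma cells. The last fibroblast share is 0 of 19 cells, which allows a share of up to 17.6% of cells thinned to this depth (95% exact binomial interval, counting error only). Before thinning 26.3% of the same 19 cells, at a median of 9469 UMIs, held an Atf3 UMI, and 67.0% of the adenoma cells of that library did, at a median of 26038.

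Ier2, a small nuclear protein gene induced with Fos, stood at 372, 322, 228 and 246 in adenoma cells. It was higher in the kit 2 endothelial sums, at 1367 and 876, with a log2 fold change of 1.23 (SE 0.37, adjusted p = 0.010). In fibroblasts it stood at 858, 672, 96.2 and 279, above adenoma cells in kit 2 and on both sides of them in kit 3. The endothelial call was lost without either of its libraries.

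Dusp1, the phosphatase that switches off p38 and JNK, was low in all epithelial classes. It stood at 122, 101, 92.2 and 96.0 in adenoma cells, 81.7, 88.5, 72.3 and 31.9 in crypt cells and 163, 209, 133 and 118 in enterocytes. Fibroblasts held 917, 470.1, 144 and 169, immune cells 648, 329, 268 and 300.3 and the kit 2 endothelial sums 966 and 745, all above every adenoma value. The log2 fold changes over adenoma cells were 1.67 (SE 0.31, adjusted p = 8.6e-05) in fibroblasts, 2.0 (SE 0.30, adjusted p = 4.8e-06) in immune cells and 2.40 (SE 0.36, adjusted p = 1.4e-05) in endothelial cells. The Dusp1 promoter, printed above, is the one of the 8 with the full palindrome TGACGTCA.

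Hspa1a differed by kit as well as by class. In adenoma cells it stood at 52.7, 26.9, 163 and 168, several times higher in kit 3 than in kit 2. Barcodes of at most 100 UMIs held 91.9, 57.9, 141 and 176 in the same libraries, and adenoma cells were above that level in 1 of 4. In fibroblasts Hspa1a stood at 543, 331, 178 and 364 and in immune cells at 217, 58.5, 511 and 539, in each library above its own adenoma cells. The log2 fold changes were 2.19 (SE 0.43, adjusted p = 0.00016) in fibroblasts, 1.86 (SE 0.40, adjusted p = 0.00039) in immune cells and 1.95 (SE 0.54, adjusted p = 0.0058) in endothelial cells. The twin gene Hspa1b stood at 19.1, 7.25, 117 and 121 in adenoma cells and at 26.6, 21.6, 94.4 and 153 in fibroblasts, and in immune cells at 24.2, 4.88, 441 and 352. Hspa1b passed the test against adenoma cells in immune cells, at a log2 fold change of 1.48 (SE 0.32).

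Counted over the 10 genes, immune cells, endothelial cells and enterocytes each held 6 genes above adenoma cells, and crypt cells held the most below. In immune cells 6 passed higher and 1 lower, where 26.5% of 13116 genes passed higher and 32.1% lower. In endothelial cells 6 passed higher and 0 lower, against 18.1% and 20.7% of all genes. In fibroblasts 3 passed higher and 1 lower, against 25.6% and 26.6%, so the fibroblast shares lay near those of all genes. In crypt cells 0 passed higher and 4 lower, Fosb, Junb, Egr1 and Atf3, against 10.9% and 21.1%. In enterocytes 6 passed higher and 0 lower, against 34.3% and 36.3%. The median log2 fold change of the 10 genes was 1.17 in immune cells, 1.01 in endothelial cells, 0.44 in fibroblasts, -0.67 in crypt cells and 0.76 in enterocytes, where the medians over all genes lay between -0.22 and -0.05.

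Read by overlap, 3 of the 10 genes lay above every adenoma value in immune cells, Junb, Jund and Dusp1, and 1 below, Egr1, where 17% of all genes lay above and 31.8% below. In fibroblasts 3 lay above, Junb, Dusp1 and Hspa1a, and 1 below, Atf3, against 20.7% and 20.4%. In crypt cells 3 lay below, Jund, Atf3 and Dusp1, against 20%. In enterocytes 1 lay above, Fos, against 16.9%. In the kit 2 endothelial sums 8 lay above every kit 2 adenoma value, all but Fosb and Atf3, against 33.8%. Fosb was above the adenoma cells of its own library in 2 of 2 libraries, though the ranges overlapped.

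Against crypt cells, nearly all calls were higher in the other class. In endothelial cells all 10 genes passed higher, where 22.6% and 19.4% of all genes passed higher and lower, and in enterocytes 8 did and 0 passed lower, against 34.6% and 22%. In immune cells 8 passed higher, against 29.5% and 25.4%, and in fibroblasts 7 passed higher and Atf3 lower, against 30.1% and 24.1%. Over enterocytes, on the TMM scale, immune cells passed higher in Fosb, Junb, Dusp1 and Hspa1a and lower in Egr1 and Atf3, against 34% and 33%, endothelial cells higher in Junb, Dusp1 and Hspa1a and lower in Atf3, against 23.5% and 26.9%, and fibroblasts higher in Hspa1a and lower in Fos and Atf3, against 32.8% and 32.4%. Pairs with enterocytes rest on the scaling described below. By total UMIs the lower Fos of fibroblasts was at a log2 fold change of -0.25 (SE 0.30, adjusted p = 0.48) and the lower Atf3 of endothelial cells turned to 0.14 (SE 0.29, adjusted p = 0.72), and neither passed. In that scaling fibroblasts passed higher than enterocytes in 6 genes and lower in Atf3, against 52.1% and 18.6% of all genes, endothelial cells higher in 8 and lower in 0, against 41.5% and 15%, immune cells higher in 6 and lower in Egr1 and Atf3, against 47% and 24.2%, and enterocytes higher than crypt cells in 6 and lower in 0, against 19.1% and 38%. Between the non-epithelial classes Atf3 was higher in endothelial cells than in fibroblasts, by a log2 fold change of 2.72 (SE 0.35, adjusted p = 3.5e-06), as the 1 gene that passed, against 8.64% and 8.97% of all genes. On the TMM scale immune cells held more Fosb, Jund and Atf3 and less Egr1 than fibroblasts, against 21.1% and 22.2%. They held less Egr1 and Ier2 than endothelial cells, against 16.3% and 15.4%. By total UMIs immune cells passed higher than fibroblasts in 1 gene and lower in 1, where 5981 of 13116 genes passed in either direction. Against endothelial cells 3 then passed lower and 0 higher, where 4301 of all genes passed in either direction.

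The enterocyte count rests on the scaling. Enterocytes hold a few very abundant RNAs, and the TMM factors that correct the library sums for this were 0.64 to 0.70 for enterocytes and 0.84 to 1.35 for the other classes. With the sums scaled to their total UMIs alone the median log2 fold change of all genes in enterocytes moved from -0.05 to -0.73. Of the 6 calls 1 remained, Fos, at 1.04 (SE 0.29, adjusted p = 0.0026). Before any TMM scaling Fosb, at 169, 91.3, 127 and 114 in enterocytes, Junb, at 405, 431, 341 and 358, and Egr1, at 260.0, 280.2, 194 and 218, overlapped their adenoma values. The counts higher under this scaling were 1 in enterocytes, 5 in fibroblasts, 8 in endothelial cells and 6 in immune cells, where 20.3%, 28.9%, 21.4% and 22.6% of all genes were higher, and 4 genes were lower in crypt cells, the same as before, where 21.5% were.

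**Figure D2:**
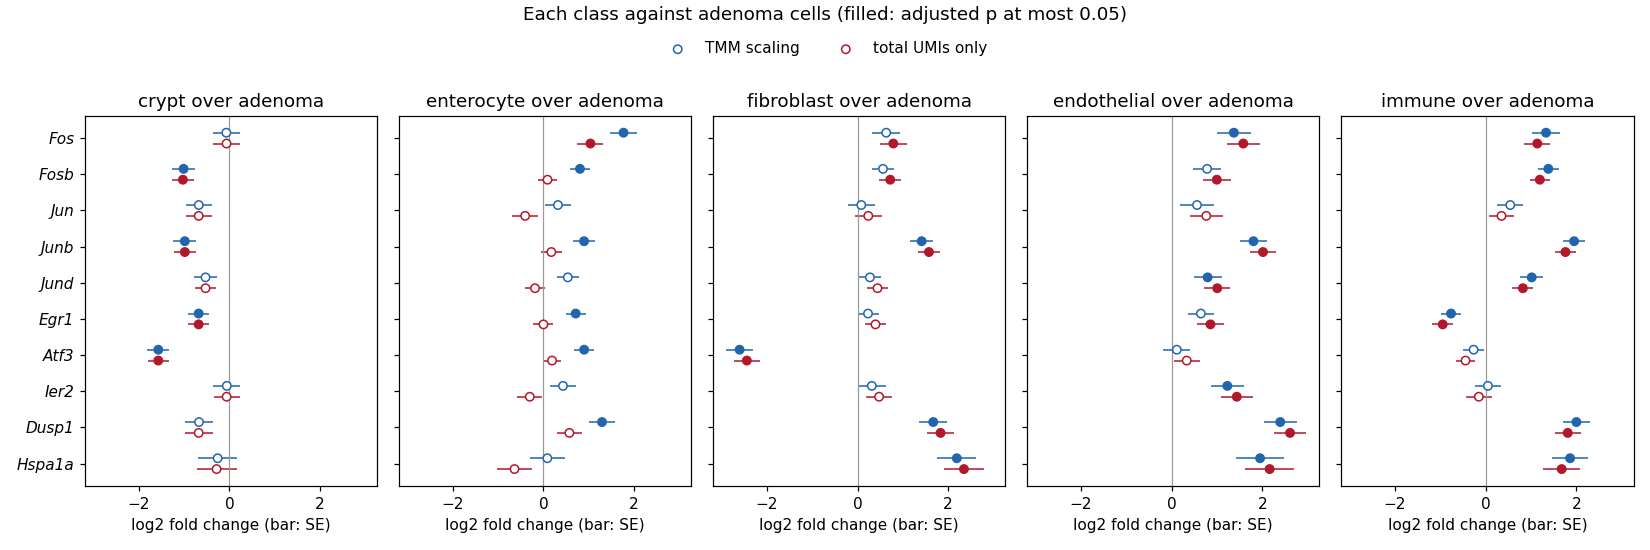
Log2 fold change of each gene in each class against adenoma cells (x axis, with the standard error as a bar), with TMM scaling in blue and with scaling to total UMIs in red; filled points passed the test. In enterocytes the red points lie left of the blue ones and only Fos stays filled, at 1.04.

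The kits bore on the fibroblast result. Within the kit 2 pair 8 of the 10 genes passed higher in fibroblasts than in adenoma cells and 1 lower, where 21.6% and 20.3% of all genes did. Within the kit 3 pair 1 passed higher, Junb, and 2 lower, Jun and Atf3, where 19.3% and 18.4% did. Fos, for example, had a log2 fold change of 1.37 (SE 0.31) in kit 2 and of -0.21 (SE 0.33) in kit 3, and Jun 0.98 (SE 0.27) and -0.95 (SE 0.28). The difference between the kits was itself tested, and it passed for Hspa1a, at -2.85 (SE 0.48, adjusted p = 0.031), where 0.0724% of all genes passed. For Dusp1 it was -1.91 (SE 0.49, adjusted p = 0.35) and for Jun -1.94 (SE 0.39, adjusted p = 0.10). The estimate was below 0 for all 10 genes and passed for 1. Without ApcMin replicate 2 the number of fibroblast calls was 7, where 5774 of 12422 genes passed in either direction. Kit 3 held 41 and 19 fibroblasts and kit 2 held 114 and 58, and the kit, the animals and the day of digestion cannot be told apart.

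In immune cells the kit 3 minus kit 2 values ran from -0.87 for Ier2 to 0.59 for Egr1, where those of fibroblasts ran from -2.85 for Hspa1a to -0.15 for Atf3. Fosb had a log2 fold change of 1.57 (SE 0.26) in kit 2 and 1.44 (SE 0.26) in kit 3, Junb 2.23 (SE 0.26) and 1.90 (SE 0.26), and Hspa1a 2.04 (SE 0.34) and 1.93 (SE 0.32). For none of the 10 genes did the difference between kits pass in immune cells, in crypt cells or in enterocytes, where 0.338%, 0% and 0.0644% of all genes passed.

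**Figure D3:**
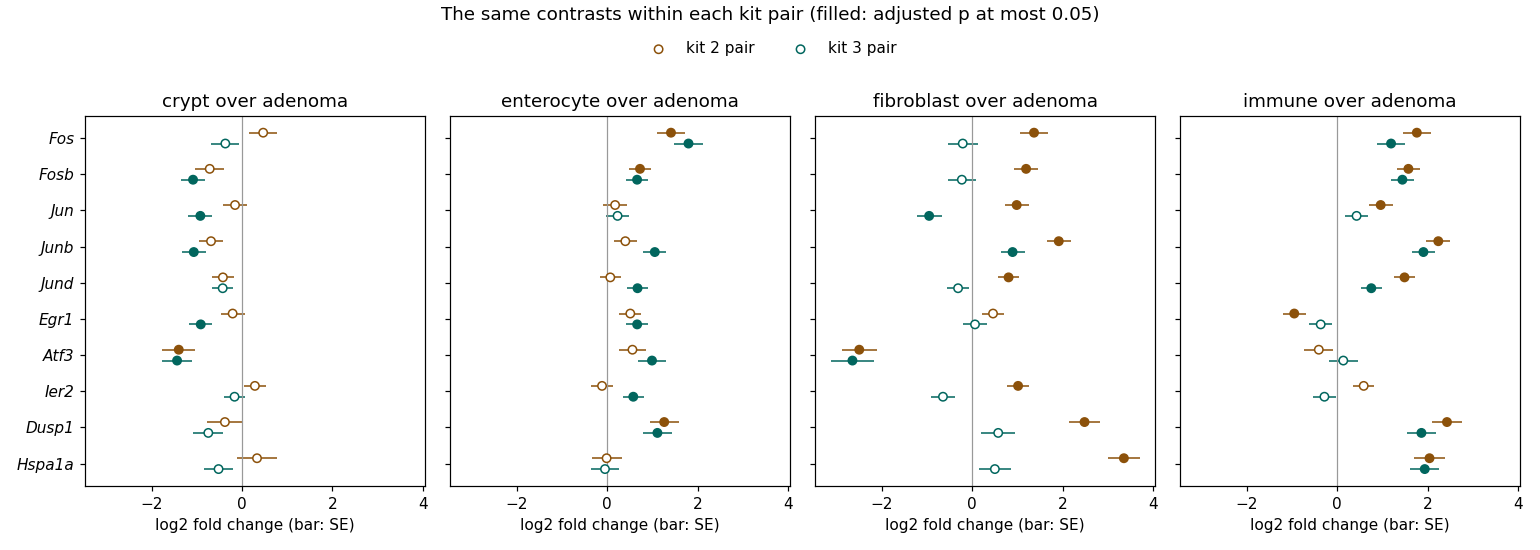
Log2 fold change against adenoma cells (x axis, standard error as a bar) computed within the kit 2 pair (brown) and within the kit 3 pair (green) for 4 classes; filled points passed the test. In fibroblasts the green points lie left of the brown ones for all 10 genes, widest for Hspa1a, 3.36 against 0.50.

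Free RNA, released from broken cells and captured with every droplet, carried these genes too. In barcodes of at most 100 UMIs Fos stood at 855, 762, 363 and 336, Atf3 at 234, 190.1, 150.1 and 134 and Dusp1 at 299, 279.8, 142 and 154 CPM. Of the values by gene and library, 23 of 40 in adenoma cells and 21 of 40 in enterocytes were above the free RNA of the same library, against 31 of 40 in fibroblasts, 31 of 40 in immune cells and 19 of 20 in endothelial cells. Crypt cells had 6 of 40 above. Dusp1 was below the free RNA level in all 4 adenoma, crypt and enterocyte sums, and Atf3 below it in all 4 fibroblast and crypt sums. Kit 3 fibroblast Fos, at 335 and 274, was also below the free RNA of its libraries. The part of free RNA in the class levels was not tested.

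The mitochondrial share, a sign of cell damage, differed by class, with medians per library of 11.1 to 13.3% in enterocytes, 3.61 to 5.90% in adenoma cells and 2.93 to 4.59% in immune cells. Adenoma cells at 10 to 20% mitochondrial UMIs held more Fos, Fosb, Jun, Junb, Jund and Egr1 than those at 0 to 5% in all 3 libraries with at least 10 cells in both bins, more Ier2 and Hspa1a in 2 of 3 and more Atf3 and Dusp1 in 1 of 3. Fosb had means of 163 and 83.8 in these bins. In enterocytes Fosb was higher at the high share in all 4 libraries, at 150.4 and 65.3, Fos, Egr1 and Ier2 in 3, Jun, Junb, Atf3 and Hspa1a in 2, and Jund and Dusp1 in 0. Dusp1 had means of 148 and 256 there. With the limit set to 10%, 2 of the 6 enterocyte calls remained, Fos and Dusp1, where 8539 of 13020 genes passed in either direction. No test was made between the bins, and the share of all genes with the same order was not counted.

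Shares of cells with a UMI were compared at equal depth. After thinning to 2000 UMIs, 69.9, 52.4, 37.9 and 42.9% of adenoma cells held a Fos UMI and 82.5, 84.2, 64.9 and 67.2% of enterocytes did, while before thinning the median depth was 18703 to 34457 UMIs in adenoma cells and 9783 to 25534 in enterocytes. Dusp1 was found in 22.2, 16.4, 15.4 and 16.4% of thinned adenoma cells and in 75.4, 43.1, 24.4 and 31.6% of fibroblasts. Hspa1a was found in 8.46, 4.38, 23.4 and 23.8% of adenoma cells and in 15.1, 5.42, 36.5 and 39.4% of immune cells. Free RNA adds to such shares in every class. Among adenoma cells the tenth with the most Hspa1a held 39.2 to 79.5% of its UMIs over the 4 libraries, and the tenth with the most Jund 21.9 to 29.4%. Hspa1a had the highest such share of the 10 genes in the kit 2 libraries and Atf3 in the kit 3 libraries. In the 508 and 525 adenoma cells of kit 2 Hspa1a had 686 and 312 UMIs, and Jund 10115 and 8262. Few UMIs alone raise such a share, so the shares of scarce and abundant genes are not comparable.

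In thinned adenoma cells Fosb and Atf3 were found in the same cell 1.41 to 1.96 times as often as the product of their shares gives, over the 4 libraries. The ratio was 1.32 to 1.68 for Atf3 and Dusp1 and 1.24 to 1.73 for Fosb and Egr1. For Jun and Jund it was 1.01 to 1.06, and for Hspa1a with Jund 0.73 to 1.04. A gene found in most cells cannot have a ratio far above 1, so the ratios of abundant and rare genes are not comparable. They describe the cells of each library and were not tested.

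Adenoma cells that held UMIs of the cycling genes Mki67 or Top2a had lower levels of these genes than those without. Atf3 stood at 289, 153, 156 and 151 in the former and 447, 283, 333 and 229.9 in the latter, and 9 of the 10 genes had this order in all 4 libraries, as 22.6% of 13116 genes did, and Hspa1a in 3. With cycling cells left out of the adenoma sums, 1 enterocyte call remained, Fos, and crypt cells had 7 calls. Over all genes 8651 of 13162 then passed in enterocytes and 5343 in crypt cells. As first fitted 9264 and 4191 of 13116 did. Cycling cells were left in the crypt sums and in all other classes, so the 2 sides of these contrasts were not treated alike.

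Immune cells were not uniform. They were split by markers into T cells, B lineage cells, which include plasma cells, and myeloid cells, with 47 to 147, 21 to 139 and 34 to 129 cells per library. Fos stood at 2737, 2717, 962 and 1269 in B lineage cells and at 719, 240.0, 399.5 and 469 in T cells, higher by a log2 fold change of 2.46 (SE 0.28, adjusted p = 1.6e-07). Fosb took the same order, 829, 318, 519.6 and 724 against 148, 11.4, 95.4 and 187, and so did Jund, 2993, 3259, 1850.5 and 2539 against 1737, 935, 1008 and 834, with 3.00 (SE 0.26, adjusted p = 3.2e-09) and 1.68 (SE 0.20, adjusted p = 3.1e-07). Junb went the other way, at 3275, 2044, 1073 and 1277 in T cells and 702, 498, 246 and 367 in B lineage cells, with a log2 fold change of -1.65 (SE 0.14, adjusted p = 2.4e-09). Within the AP-1 family, Fos, Fosb and Jund were thus higher in B lineage cells and Junb in T cells.

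Myeloid cells were the immune cells with Atf3. It stood at 520.2, 239, 333 and 374 there, against 13.4, 27.4, 35.8 and 14.4 in T cells and 53.7, 37.4, 18.2 and 17.9 in B lineage cells, with no overlap and a log2 fold change over T cells of 4.19 (SE 0.28, adjusted p = 3.8e-11). Dusp1 stood at 1023, 534, 411 and 386 in myeloid cells, against 247, 153, 59.3 and 17.9 in B lineage cells, higher by 2.02 (SE 0.23, adjusted p = 1.9e-07). Egr1, the gene that was low in immune cells, was higher in myeloid than in T cells by 1.57 (SE 0.27, adjusted p = 4.7e-05). Counted over the 10 genes, 6 passed higher and 2 lower in B lineage over T cells, where 21.6% and 22.4% of 5003 genes did. In myeloid over T cells 5 passed higher and 1 lower, against 22.8% and 19.7%, and in myeloid over B lineage cells 3 higher and 4 lower, against 28.1% and 23.7%. B lineage cells numbered 139, 43, 22 and 21 and T cells 96, 147, 47 and 106, so the mix differed between libraries, and its part in the immune levels was not tested.

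**Figure D4:**
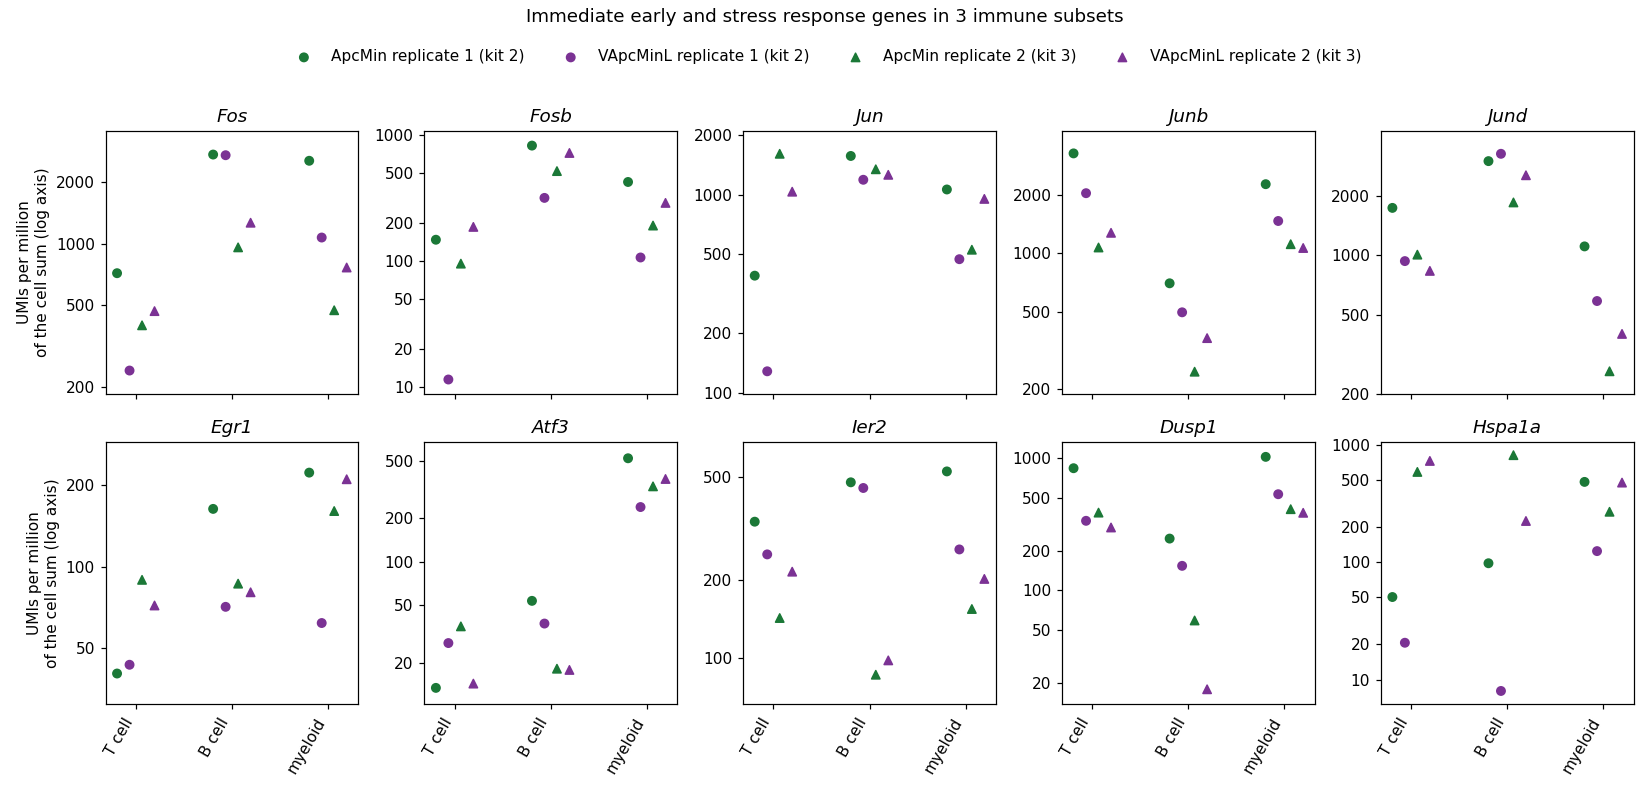
Level of each gene (CPM in the subset sum, log axis, a separate scale per gene) in T, B lineage and myeloid cells; each point is 1 library, colour gives the label and shape the kit, and a value of 0 is drawn at the foot of its panel. Atf3 lay at 239 to 520.2 in myeloid cells and at 13.4 to 35.8 in T cells, and Junb at 1073 to 3275 in T cells and 246 to 702 in B lineage cells.

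The study's own comparison was Lef1 deletion in the epithelium. Here the libraries labelled VApcMinL and ApcMin were compared within each class, with the kit as a block. In the kit 2 pair Lef1 in adenoma cells went against the label, as given above. Xist followed the label in both kits, so a difference in sex cannot be told apart from the label. None of the 10 genes passed between libraries labelled VApcMinL and ApcMin in adenoma, crypt, enterocyte, fibroblast or immune cells, where 0%, 0.0111%, 0.00923%, 0.0736% and 0.046% of all genes passed. In adenoma cells 26 of 12896 genes had an unadjusted p under 0.05, and DESeq2 called 0 of the 10. The log2 fold changes of the 10 in adenoma cells ran from -0.77 (SE 0.52, adjusted p = 1) for Fosb to 0.03 (SE 0.21, adjusted p = 1) for Jun. These fits hold 2 libraries a side.

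The pairs stood apart from each other, on the TMM scale. In the kit 2 pair the library labelled VApcMinL was lower than the library labelled ApcMin for 9 of 10 genes in adenoma cells and for 10 of 10 in fibroblasts, in endothelial cells and in immune cells, where 49.7%, 54.8%, 47.3% and 51.7% of all genes were lower. In the kit 3 pair it was lower for 1, 2 and 2 of 10 in adenoma cells, fibroblasts and immune cells, where 41.2%, 56.3% and 49.5% of all genes were lower. By total UMIs the adenoma counts were 8 in kit 2 and 5 in kit 3, so the order in adenoma cells depends on the scaling, while the fibroblast, endothelial and immune counts were the same. In kit 2 immune cells the log2 differences ran from -2.43 (Fosb) to -0.44 (Junb), with a median of -1.2, and in kit 3 from -0.24 (Jun) to 0.50 (Fos), with a median of 0.34. Within the immune cells of the kit 2 pair, Fos stood at 719 and 240.0 in T cells and at 2552 and 1074 in myeloid cells, and at 2737 and 2717 in B lineage cells. Enterocytes of the kit 2 pair did not share the order, with 4 of 10 lower and 47.5% of all genes lower.

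**Figure D5:**
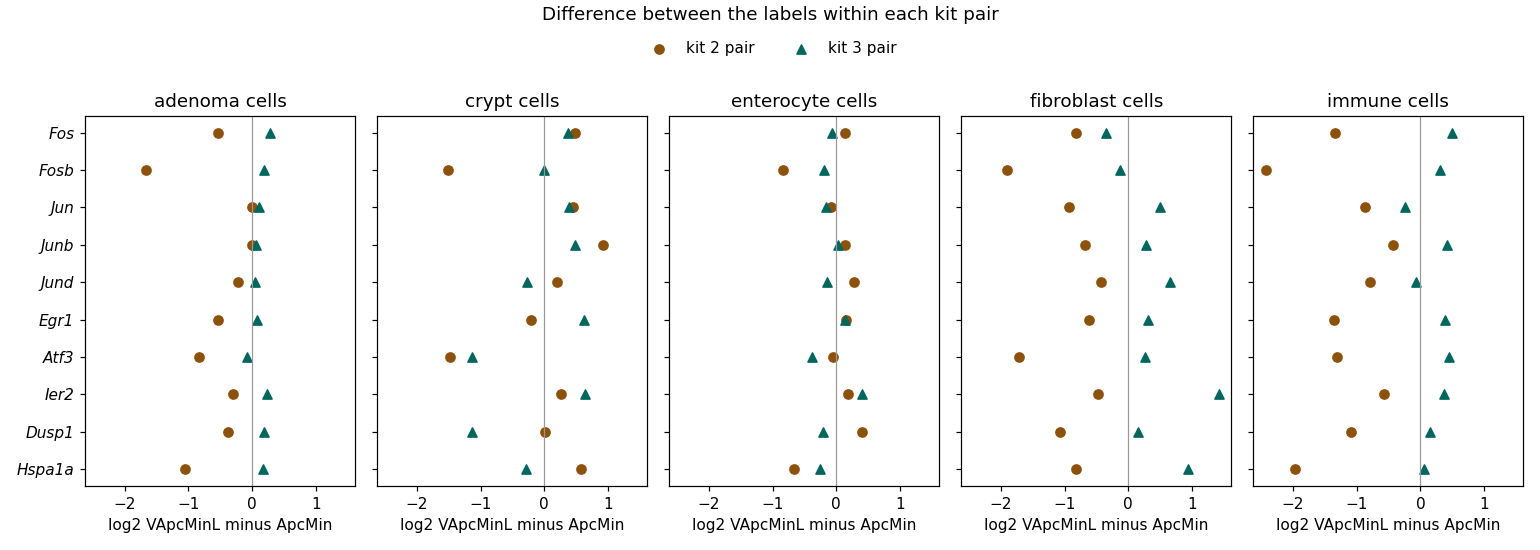
Log2 difference between the library labelled VApcMinL and the library labelled ApcMin (x axis, TMM scale) for each gene within the kit 2 pair (brown circles) and the kit 3 pair (green triangles) in 5 classes; each point is 1 pair of libraries and has no error of its own. In immune cells the kit 2 points all lie below 0, down to -2.43 for Fosb, and the kit 3 points lie between -0.24 and 0.50.

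Further immediate early genes, from a list of 31 such as the nuclear receptors of the Nr4a family, the Klf factors, Zfp36 and Ier3, were counted in the same fits, for which the shares of all genes are those given above. Of 30 tested against adenoma cells, 0 higher and 16 lower in crypt cells, 13 higher and 7 lower in enterocytes, 19 higher and 2 lower in fibroblasts, 18 higher and 0 lower in endothelial cells and 19 higher and 4 lower in immune cells passed. The median log2 fold change of the list was -0.77 in crypt cells, 0.22 in enterocytes, 1.00 in fibroblasts, 1.23 in endothelial cells and 1.42 in immune cells. Nr4a3, an orphan nuclear receptor, had a log2 fold change of 6.30 (SE 0.51; 27.8 against 0.42 CPM) in immune cells and 5.10 (SE 0.63) in fibroblasts, and Cxcl2, a neutrophil attractant, 5.35 (SE 0.69; 611 against 16.6 CPM) in immune cells. Ctgf, a matrix protein of connective tissue that YAP induces, had 7.60 (SE 0.50; 77.8 against 0.34 CPM) in fibroblasts, and Cyr61, its relative, fell in immune cells, -4.51 (SE 0.56; 4.64 against 115 CPM). In enterocytes Nr4a1 fell, -2.59 (SE 0.26; 3.84 against 37.7 CPM), while Zfp36, which speeds the decay of short-lived RNAs, rose, 2.28 (SE 0.26; 377 against 128 CPM). In crypt cells Klf2 was lower, -2.88 (SE 0.38; 17.4 against 77.5 CPM). With scaling to total UMIs the enterocyte count was 9 higher and 13 lower. In enterocytes that scaling, used for the lists below too, called 9813 of 13116 genes, 2657 of them higher and the rest lower. Between the labels 0 genes of these lists passed, other than 1 lower immediate early gene in fibroblasts.

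The other AP-1 and ATF family factors showed which partners each class held. Of 15 tested, 2 higher and 6 lower in crypt cells, 7 higher and 6 lower in enterocytes, 7 higher and 2 lower in fibroblasts, 5 higher and 1 lower in endothelial cells and 7 higher and 2 lower in immune cells passed. Batf3 and Batf, which pair with JUN proteins in blood cells, had log2 fold changes of 7.83 (SE 0.33; 50.2 against 0.28 CPM) and 6.24 (SE 0.35; 36.8 against 0.62 CPM) in immune cells, and Batf3 6.78 (SE 0.40; 33.8 against 0.28 CPM) in fibroblasts. Fosl1, the FOS family member tied to growth and migration of epithelium, was lower than in adenoma cells in crypt cells, -2.35 (SE 0.43; 2.80 against 11.2 CPM), and in immune cells, -2.69 (SE 0.45). By total UMIs the enterocyte count was 4 higher and 8 lower. Cebpb was higher in enterocytes, 2.08 (SE 0.19; 129 against 50.7 CPM), and Batf2 too, 4.00 (SE 0.27; 19.4 against 1.93 CPM).

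Of the relatives of Dusp1 that restrain MAP kinases, 14 dual specificity phosphatases and Sprouty or Spred proteins, 0 higher and 8 lower in crypt cells, 5 higher and 6 lower in enterocytes, 6 higher and 3 lower in fibroblasts, 6 higher and 2 lower in endothelial cells and 4 higher and 4 lower in immune cells passed. By total UMIs the enterocyte count was 2 higher and 8 lower. Dusp2 had the highest fold change in immune cells, 7.04 (SE 0.38; 49.0 against 0.40 CPM), and in endothelial cells, 8.31 (SE 0.45; 151 against 0.40 CPM). Spry4 was higher in fibroblasts, 4.49 (SE 0.32; 101 against 3.86 CPM), and Dusp5 in enterocytes, 3.56 (SE 0.23; 86.4 against 12.4 CPM). Dusp4, a target of ERK signalling, was lower in fibroblasts, -3.05 (SE 0.60; 4.45 against 32.8 CPM), and in crypt cells, -1.99 (SE 0.39; 6.63 against 32.8 CPM), and its kit 2 endothelial sums held 0 UMIs.

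The heat shock chaperones other than Hspa1a were lower more often than higher. Of 17 tested, 2 higher and 7 lower in crypt cells, 2 higher and 10 lower in enterocytes, 2 higher and 9 lower in fibroblasts, 2 higher and 8 lower in endothelial cells and 3 higher and 11 lower in immune cells passed. The median log2 fold change was -0.36 in fibroblasts and -0.70 in immune cells, where Hspa1a was 2.19 and 1.86. Hspd1, the mitochondrial chaperonin, was lower in fibroblasts, -2.24 (SE 0.15; 148 against 637 CPM), and so was Hsp90ab1, the steady cytosolic chaperone, -1.84 (SE 0.13; 1262 against 4076 CPM). Hspb1, a small chaperone that binds actin and is inducible, was higher in fibroblasts, 2.82 (SE 0.40; 955 against 131 CPM), and lower in crypt cells, -4.71 (SE 0.58; 4.53 against 131 CPM), and in enterocytes, -4.60 (SE 0.47). Of the 10 endoplasmic reticulum chaperones and their regulator, 0 higher and 1 lower in crypt cells, 2 higher and 3 lower in enterocytes, 5 higher and 0 lower in fibroblasts, 0 higher and 2 lower in endothelial cells and 9 higher and 0 lower in immune cells passed, led in immune cells by Xbp1, 2.93 (SE 0.25; 685 against 101 CPM), the factor that builds up the secretory apparatus of plasma cells. By total UMIs, where most calls over all genes were lower too, the enterocyte counts were 1 higher and 14 lower for the heat shock list. For the endoplasmic reticulum list they were 1 higher and 8 lower.

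Over the 22 class and library sums, with log2(CPM + 1) centred on the library mean, Junb and Dusp1 were the pair most alike, with Pearson's r = 0.95, and Fosb and Dusp1 came next at 0.92. Atf3 stood apart, with a median r of 0.07 to the other 9 and -0.31 to Hspa1a, and Egr1 had a median of 0.30. Among the 10 other genes of at least 20 CPM whose pattern was nearest to the mean of the set were Ppp1r15a (r = 0.92), Nfkbia (r = 0.89), Gabarapl2 (r = 0.89), Gm26532 (r = 0.89), Bcl10 (r = 0.89), Xaf1 (r = 0.88), Atp6v0d1 (r = 0.88), Btg2 (r = 0.88) and Itm2b (r = 0.88). Ppp1r15a, which ends the translational stress response, stood at class means of 19.5 CPM in crypt, 45.8 in adenoma and 249 in endothelial cells, and Nfkbia, the feedback inhibitor of NF-kappaB, at 112, 134 and 1189.8. The sums share libraries, depth and free RNA, and the correlations are a description.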

How the data were processed

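Single-cell RNA-seq of ApcMin and VApcMinL adenomas was analysed from the deposited UMI counts per gene and barcode, which the authors made with Cell Ranger 2.1.1 on mm10 (GRCm38) per the submitters' notes, while the kit 3 matrix headers name software 3.1.0. Seurat 3.1.1 is named too, but the deposited counts were not normalized. No column was left unmapped (0).

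Barcodes with at least 2000 UMIs and at most 20% mitochondrial UMIs were gated on marker lists, and those passing more than 1 lineage gate were left out. No doublet caller was run. Counts were summed per library and class, with sums of under 10 cells left out, and tested with edgeR 4.0.16 (quasi-likelihood, TMM, minimum count 10, R 4.3.3, limma 3.58.1), with the library as a block between classes and the kit as a block between labels. Genes were called at a Benjamini-Hochberg adjusted p of at most 0.05 over all genes, two-sided. DESeq2 1.42.0 was an alternative. Levels, thinning and figures used Python 3.11.15, numpy 2.4.6, scipy 1.17.1, pandas 2.3.3 and matplotlib 3.10.9. On simulated data for fibroblasts over adenoma cells (10901 genes, 200 changed by 1.5 on the log2 scale) 177 were recovered with 3 false calls, and for the labels in adenoma cells (9835 genes) 168 with 12 false calls. The simulation kept the better counted genes, at a fixed dispersion of 0.05 and with no difference between kits. It checks the fitting steps and does not give the power of the tests in these data.

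The 10 genes and the other lists were chosen with earlier results of these data known. Of each other list the rule allowed the 3 called genes with the largest rise and the 3 with the largest fall per contrast, and some of these are named, together with Lef1, the 10 genes nearest in pattern, 1 of which is not reported here, and Hspa1b. The libraries were compared within kit, as immune subsets, without cycling adenoma cells and by total UMIs only after the data had been seen. Xist was looked up after the data had been seen.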

Additional observations from a re-analysis of the deposited data

Results flagged for a closer look

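Over the 50 groups of 4 libraries tested, 2 held a library far from the other 3, where chance gives about 1 in 20 groups. Fosb in fibroblasts of ApcMin replicate 1 stood at 490.2 CPM, where the other 3 libraries lay between 111 and 139. Dusp1 in immune cells of ApcMin replicate 1 stood at 648, where the other 3 lay between 268 and 329.

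The fibroblast over adenoma difference of Hspa1a differed between the kits, by a log2 value of -2.85 (kit 3 minus kit 2, edgeR adjusted p = 0.031).

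By total UMIs, Egr1 in enterocytes over adenoma cells lay on opposite sides of 0 by label. The mean log2 difference in level was -0.21 in the ApcMin libraries and 0.18 in the libraries labelled VApcMinL, 0.39 apart, every library on its group's side. On the TMM scale Egr1 passed the test higher in enterocytes with all libraries, so the sides of 0 rest on the scaling. The difference between the labels was not tested.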

How the results depend on the processing

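Calls of the 10 genes that held in every alternative run for their contrast were 6 of 7 in immune cells (all but Egr1), 2 of 4 in fibroblasts (Junb and Atf3), 2 of 6 in endothelial cells (Junb and Dusp1), 1 of 4 in crypt cells (Atf3) and 1 of 6 in enterocytes (Fos). Differences not called as first fitted passed in some alternatives, so a missing call is no sign of equal levels. In fibroblasts Fosb passed in 10 of 16 and Fos in 7, and in endothelial cells Fosb in 8 of 14 and Egr1 in 7. The causes of the changes below were not tested. The crypt count of 4 became 7 with cells thinned to 2000 UMIs, without cycling adenoma cells and with no expression filter. It became 1 with no library block or in kit 2 only. Over all genes 4191 of 13116 passed in crypt cells as first fitted. In the runs with 7 calls 1198 of 9374, 5343 of 13162 and 4353 of 20691 genes passed, in that order. In the runs with 1 call 2989 of 13116 and 1158 of 12431 did. The enterocyte count of 6 became 2 with a mitochondrial limit of 10% or no library block. It became 1 without cycling adenoma cells or scaled to total UMIs only, and 3 in kit 2 only. Over all genes 9264 of 13116 passed in enterocytes as first fitted. In these runs 8539 of 13020, 8091 of 13116, 8651 of 13162, 9813 of 13116 and 7730 of 12431 genes passed, in that order. The fibroblast count of 4 became 9 in kit 2 only, where 5210 of 12431 genes passed, against 6836 of 13116 as first fitted. The endothelial count of 6 became 3 with a floor of 5000 UMIs, where 4089 of 12001 genes passed, against 5091 of 13116. Leaving out 1 library at a time gave 2 to 5 calls in crypt cells (2 without ApcMin replicate 2), 4 to 7 in enterocytes, 4 to 7 in fibroblasts (7 without ApcMin replicate 2), 2 to 8 in endothelial cells (2 without ApcMin replicate 1), 7 to 8 in immune cells and 0 in every comparison of labels. The difference of Egr1 in enterocytes turned to -0.0011 when scaled to total UMIs. Between the labels, Jun in adenoma cells, 0.03, turned to -0.26 without ApcMin replicate 1 and to -0.35 without VApcMinL replicate 2, and ranged up to 0.39 with 1 library left out. With no filter 1 of the 10 genes was called between labels in crypt cells, where 52 of 14690 genes were. In immune cells 2 of the 10 were, where 142 of 15937 genes were. With thinned cells 1 of the set was called in fibroblasts, where 8 of 1894 genes were.

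The replicate number marks the kit, which was the block between labels. Same-kit adenoma libraries deviated from their group means with r = 0.18 over 12896 genes. With no replicate block 0 of the 10 genes were called in each class, and Fosb in adenoma cells was at -0.75. Fibroblasts and crypt cells numbered as few as 19 and 16 in a library. With thinned cells 7 of the 10 genes were tested between labels in crypt cells and 9 in fibroblasts.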
